A study of Mus musculus with 2 samples.

Results

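The miR-130 family (Mir130a, Mir130b, Mir301, which encodes miR-301a, and Mir301b) and the miR-148 family (Mir148a, Mir148b and Mir152) were followed in microRNA libraries of the mouse heart. The 7 genes were chosen by their names in GENCODE M21, out of 2202 microRNA genes in the tables, a rule that uses no measured value, though both families were picked with earlier results of these data known. The libraries came from heart tissue of female B6CASTF1/J mice, an F1 hybrid strain, aged 14 days, and were limited to RNA shorter than 30 bases. The labels give 2 biological replicates of this 1 group and no treatment, so the data hold no contrast of conditions. For replicate 1 a label speaks of 3 females, for replicate 2 of a single one, and no label says whether replicate 1 was pooled. The age was taken from the age field, in days, since another label has months.

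MicroRNAs are cut from hairpin precursors and guide Argonaute proteins to messenger RNAs, mostly by pairing of the seed, bases 2 to 8 of the mature strand, and the paired messenger RNA is repressed. In both families the mature strand with the family seed comes from the 3′ arm of the hairpin. In human endothelial cells miR-130a represses the homeobox genes GAX and HOXA5, which restrain vessel growth, and the miR-130 family is known from pulmonary hypertension, where it lowers PPARG. The miR-148 family is known for repressing the DNA methyltransferase genes and, in liver, the receptor of low-density lipoprotein.

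The mature sequences are shown because the 2 families differ by the register of the same bases. They are from RefSeq on GRCm38.p6, 5′ to 3′, with the seed in capitals.
miR-130a-3p: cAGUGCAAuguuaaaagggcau
miR-130b-3p: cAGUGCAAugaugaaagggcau
miR-301a-3p: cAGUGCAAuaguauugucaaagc
miR-148a-3p: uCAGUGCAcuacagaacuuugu
miR-148b-3p: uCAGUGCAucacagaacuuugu
miR-152-3p: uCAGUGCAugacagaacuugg
The stretch CAGUGCA lies at bases 1 to 7 of the 3 miR-130 sequences and at bases 2 to 8 of the 3 miR-148 sequences, so the seeds read AGUGCAA and CAGUGCA. Between families the longest stretch shared by any pair was 7 bases. Among 1738 mature mouse sequences in the RefSeq table, 7 (0.403%) had the seed AGUGCAA and 3 (0.173%) had the seed CAGUGCA.

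Compared base by base along the strand, seed included, miR-130a-3p and miR-130b-3p differed at 2 of 22 positions, and miR-130a-3p and miR-301a-3p at 10 of 22. In the other family, miR-148a-3p differed from miR-148b-3p at 2 of 22 positions and from miR-152-3p at 3 of 21. The longest stretch that any of these 6 sequences shared with another annotated hairpin was 15 bases, between miR-130a-3p and Mir6389. Over whole hairpins the longest was 17 bases, also between Mir130a and Mir6389. None of the 7 hairpins shared 20 bases with another, so reads of the length of a mature strand can be told apart between these genes when they match in full. Near matches and copies elsewhere in the genome were not looked for.

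The genes lie on 5 chromosomes of mm10, and 5 of 7 are in introns of coding genes on the same strand. Mir130a (chr2:84741115-84741178, minus strand) lies in no annotated gene, 991 bases from Gm19426. Mir130b (chr16:17124061-17124142) and Mir301b (chr16:17124400-17124496) lie on the minus strand in the coding gene 2610318N02Rik, 258 bases apart. Mir301 (chr11:87113004-87113089, plus strand) lies in Ska2, which encodes a protein of the spindle and kinetochore. Mir148a (chr6:51269812-51269910, minus strand) lies in no annotated gene, and the nearest coding gene, Nfe2l3, is 162760 bases away. Mir148b (chr15:103285125-103285221, plus strand) and Mir152 (chr11:96850393-96850465, plus strand) lie in Copz1 and Copz2, which encode the paralogous zeta subunits of the COPI vesicle coat. All 7 hairpins have the same coordinates in RefSeq.

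Replicate 1 held 12701590 reads and replicate 2 held 7126319, and 5237062 and 3026501 of them fell on a microRNA gene in its own orientation. A level is the count of a gene per 1000000 such reads (CPM). A read stands for 1 short RNA, so levels were not divided by hairpin length, and reads of the 5′ and 3′ arms are summed in the tables. Reads that mapped to several places, 41.1% of replicate 1 and 39.9% of replicate 2, were counted for no gene. An SD over 2 libraries reflects a single difference. Intervals are exact 95% Clopper-Pearson intervals for counting error only, as the reads carry no molecular identifiers and may be copies of the same molecule. The tissue label was set beside the heart muscle microRNAs Mir208a, Mir208b and Mir499, of which 3 of 3 were detected. Their summed level was 5166 CPM in replicate 1 and 3415 CPM in replicate 2. Liver Mir122 (55.9 and 70.4 CPM) and skeletal muscle Mir206 (7.83 and 20.5 CPM) were detected too, at lower levels, so detection alone does not check the label. Detection was set at 10 or more reads in each library, which held for 335 (15.2%) of the 2202 genes and for 6 of the 7 followed here.

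Mir130a was the main gene of both families and the only one above 1000 CPM. It had 18796 reads in replicate 1 and 11937 in replicate 2, or 3589 CPM (interval 3538 to 3641) and 3944 CPM (3874 to 4015). The mean was 3767 ± 251 CPM (SD, n = 2), and it ranked 32nd among all genes, above 90.7% of detected genes or level with them. The SD was small beside the mean, and the libraries put the gene at ranks 34 and 33.

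Mir130b, whose mature strand is nearly that of Mir130a, was the next in mean level, though in replicate 1 Mir152 and Mir148a lay slightly above it. It had 804 and 641 reads, or 154 CPM (143 to 165) in replicate 1 and 212 CPM (196 to 229) in replicate 2, with a mean of 183 ± 41.2 CPM. Mir301, in the intron of Ska2, had 128 and 163 reads, or 24.4 CPM (20.4 to 29.1) and 53.9 CPM (45.9 to 62.8), with a mean of 39.1 ± 20.8 CPM. Both were higher in replicate 2, and for neither did the intervals of the 2 libraries overlap.

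Mir301b was close to the limit of what these libraries can show. It had 14 reads in replicate 1 and 1 read in replicate 2, or 2.67 CPM (1.46 to 4.49) and 0.330 CPM (0.00837 to 1.84), and was the only gene of the 7 not called detected. Even a count of 0 would have left room for a level of 0.573 CPM (replicate 1) or 0.991 CPM (replicate 2), with 3 reads as the limit, and the read of replicate 2 is within it. The hairpins of Mir130b and Mir301b are shown because they lie 258 bases apart within the same host gene and were counted so differently. The mature arms of the RefSeq table are in capitals.
Mir130b: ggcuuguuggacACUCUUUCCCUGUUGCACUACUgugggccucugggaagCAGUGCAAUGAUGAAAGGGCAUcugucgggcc
Mir301b: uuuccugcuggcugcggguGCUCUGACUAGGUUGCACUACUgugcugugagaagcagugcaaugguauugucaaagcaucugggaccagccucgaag

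The 3 genes of the miR-148 family stood much nearer to each other. Mir152, in Copz2, had 882 and 377 reads, or 168 CPM (157 to 180) in replicate 1 and 125 CPM (112 to 138) in replicate 2, with a mean of 146 ± 31.0 CPM. Mir148a, the gene far from any coding gene, had 826 and 393 reads, or 158 CPM (147 to 169) and 130 CPM (117 to 143), with a mean of 144 ± 19.7 CPM. Mir152 and Mir148a took ranks 138 and 139 among all genes.

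Mir148b, in Copz1, was the least even of the 3 between the libraries. It had 637 and 122 reads, or 122 CPM (112 to 131) in replicate 1 and 40.3 CPM (33.5 to 48.1) in replicate 2. Its mean was 81.0 ± 57.5 CPM, with an SD that was large beside it. For comparison, the median over the 335 detected genes was 73.3 CPM, so Mir130a, Mir130b, Mir152, Mir148a and Mir148b had means above it and Mir301 and Mir301b below.

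**Figure D1:**
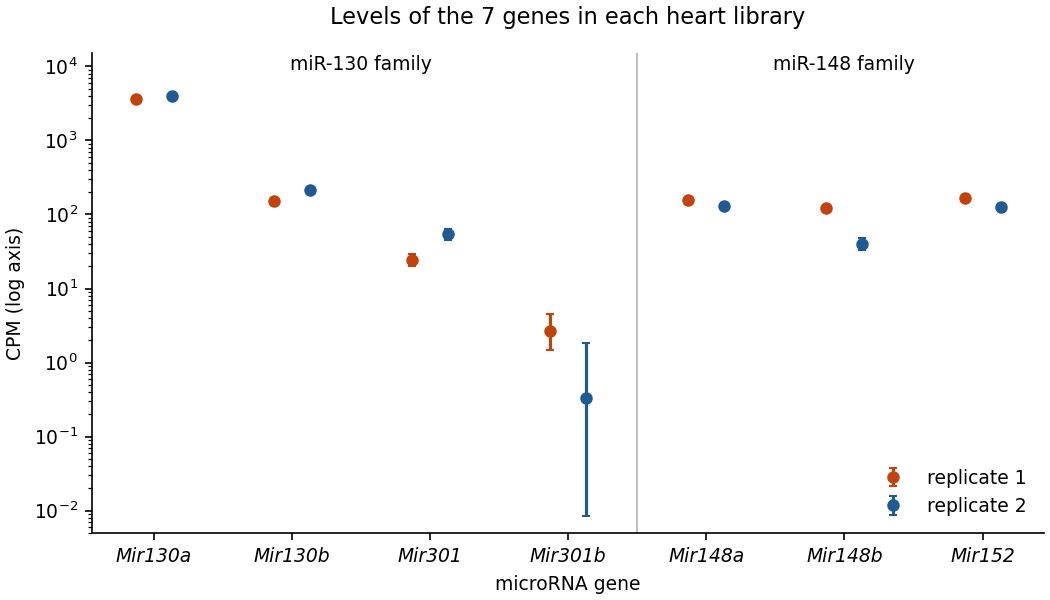
Level of each gene (CPM, log axis) in replicate 1 and replicate 2; points are libraries and bars are exact 95% intervals from counting error. Mir130a stands at 3589 and 3944 CPM, far above the others, and Mir301b lies lowest, at 2.67 and 0.330 CPM.

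By mean level the order was Mir130a, Mir130b, Mir152, Mir148a, Mir148b, Mir301 and Mir301b. Neighbours in this order whose libraries overlapped were Mir130b and Mir152, Mir152 and Mir148a, and Mir148b and Mir301. Each of these pairs changed order between the libraries, so their order by mean is not settled. Mir130b and Mir152 stood at 154 and 168 CPM in replicate 1 and at 212 and 125 CPM in replicate 2. Mir148b and Mir301 stood at 122 and 24.4 CPM in replicate 1 and at 40.3 and 53.9 CPM in replicate 2. Mir130a lay above the other 6 genes in both libraries, both values of Mir148a lay above both of Mir148b, and Mir301b lay below the other 6 in both libraries. The most abundant gene of the tables, Mir378a, stood at 184074 CPM. By counted reads, Mir130a was thus abundant within its family and not among the leading microRNAs of these libraries. Reads that mapped to several places were left out, so genes that share sequence can rank too low.

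**Figure D2:**
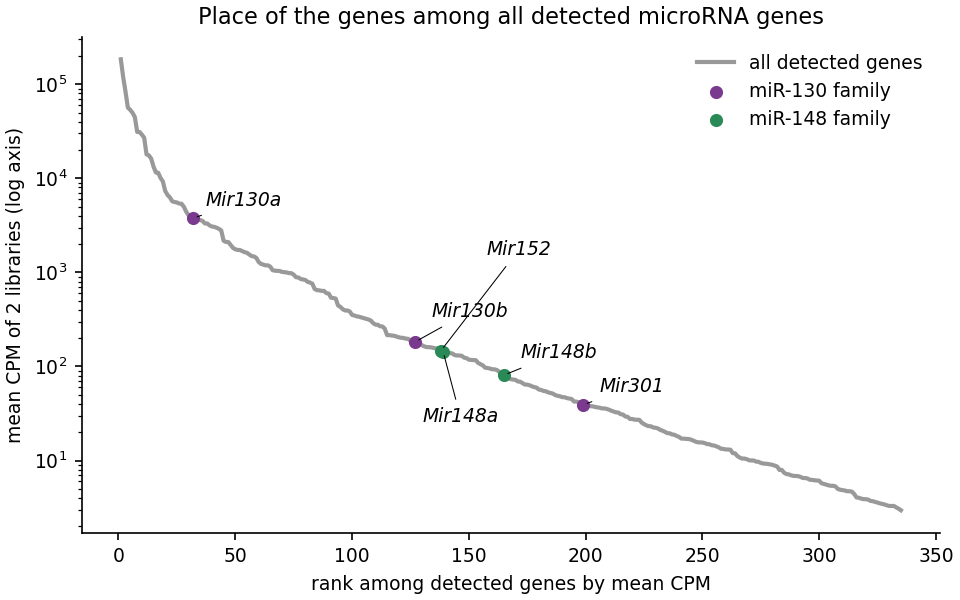
Mean CPM of the 335 detected genes (log axis) against their rank, with the 6 detected genes of both families marked. Mir130a holds rank 32, the other 5 lie between ranks 127 and 199, and Mir301b is not drawn because it was not detected.

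Summed over its 4 genes, the miR-130 family took 3770 CPM (3717 to 3823) in replicate 1 and 4210 CPM (4138 to 4284) in replicate 2, a mean of 3990 ± 311 CPM or 0.399% ± 0.0311 of counted reads. The 3 genes of the miR-148 family took 448 CPM (430 to 466) and 295 CPM (276 to 315), a mean of 371 ± 108 CPM or 0.0371% ± 0.0108. The miR-130 family thus had 8.42 times the reads of the miR-148 family in replicate 1 and 14.3 times in replicate 2. The larger family by reads was the same in both libraries, and the ratio was not stable.

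The 2 families were built differently. Mir130a made up 95.2% (94.9 to 95.5) of the reads of its family in replicate 1 and 93.7% (93.2 to 94.1) in replicate 2. Mir130b made up 4.07% and 5.03%, Mir301 0.648% and 1.28%, and Mir301b 0.0709% and 0.00785%. No gene dominated the miR-148 family to that degree: Mir152 held 37.6% (35.6 to 39.6) and 42.3% (39.0 to 45.6), and Mir148a 35.2% (33.3 to 37.2) and 44.1% (40.8 to 47.4). Mir148b held 27.2% (25.4 to 29.0) for replicate 1 and 13.7% (11.5 to 16.1) for replicate 2, the smallest share in both libraries.

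**Figure D3:**
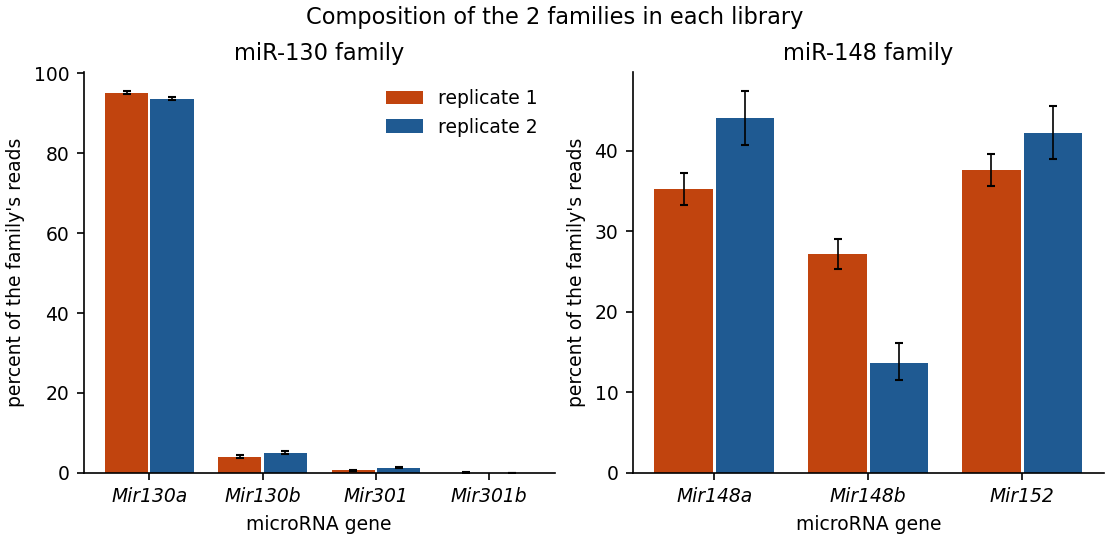
Share of each family's reads taken by each gene, in percent, for replicate 1 and replicate 2, with exact 95% intervals from counting error. Mir130a takes 95.2% and 93.7% of the miR-130 reads, whereas Mir152 and Mir148a take shares near each other and Mir148b takes 27.2% and 13.7%. The vertical axes of the 2 panels differ.

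Ratios of genes within a library do not depend on how the libraries are scaled, though 2 microRNAs may differ in how well they are cloned. For the 7 pairs, a difference in ratio between libraries can be set beside 1.28, which is the SD of log2 differences between libraries over the 226 genes averaging 100 or more reads, multiplied by the square root of 2. Mir152 and Mir148a were close to equal, at a log2 ratio of 0.09 (interval -0.04 to 0.23) for replicate 1 and -0.06 (-0.27 to 0.15) for replicate 2. The sign changed and each interval held 0. Mir130a over Mir130b was 23.4 in replicate 1 and 18.6 in replicate 2, a mean log2 ratio of 4.38 ± 0.23, and Mir130a over Mir148a was 22.7 and 30.3, a mean of 4.72 ± 0.29.

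Ratios to Mir148b were less even. Mir148a over Mir148b was 1.30 in replicate 1 and 3.21 in replicate 2, with log2 ratios of 0.37 (0.22 to 0.53) and 1.68 (1.39 to 1.99), which differed by -1.31. Mir152 over Mir148b was 1.38 and 3.08, with log2 ratios of 0.47 (0.32 to 0.62) and 1.62 (1.33 to 1.93), which differed by -1.15. Mir148b was the lowest of the family in both libraries. The intervals of the 2 libraries did not overlap, and both differences were about as large as the 1.28 given above. That value came from the SD over all 226 genes, Mir148b included, and not from pairs of other genes. The SD was 0.91, while the median absolute log2 difference over the same genes was 0.40.

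Of the 7 pairs compared, the clustered pair had the widest gap. Mir130b over Mir301b had a log2 ratio of 5.79 (5.09 to 6.72) in replicate 1 and 8.74 (6.84 to 14.6) in replicate 2, and Mir301 over Mir301b one of 3.15 (2.39 to 4.10) and 6.77 (4.85 to 12.7). The second values rest on 1 read of Mir301b. In each library Mir301b was far below its cluster partner and below Mir301, whose 5′ strand has the same seed.

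**Figure D4:**
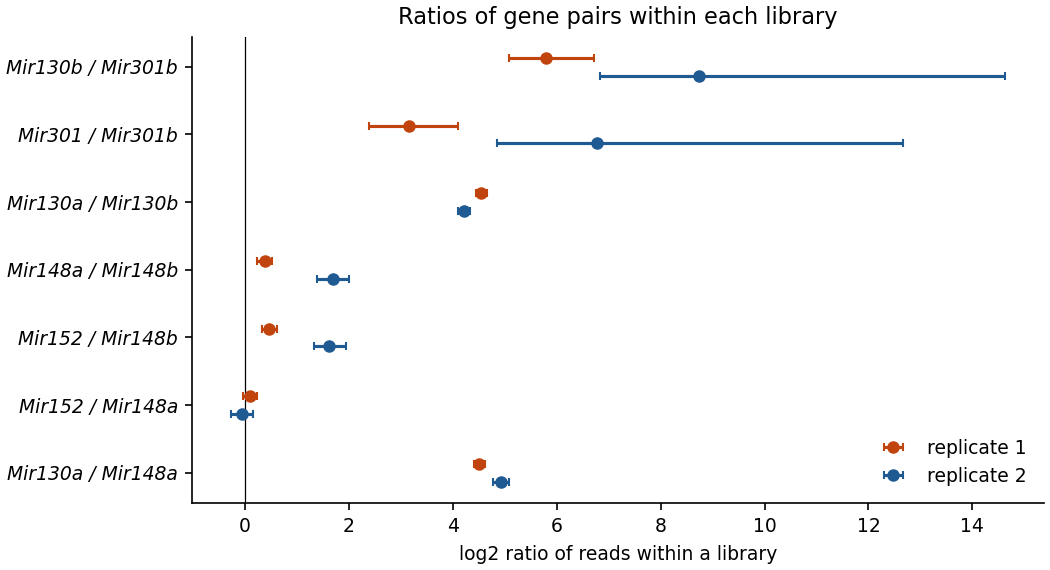
Log2 ratio of reads for 7 pairs of genes within replicate 1 and replicate 2, with intervals from counting error. Mir152 over Mir148a lies at 0.09 and -0.06, both ratios to Mir148b are higher in replicate 2, and the ratios to Mir301b have wide intervals.

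The libraries were then compared gene by gene with an exact two-sided binomial test on counts, scaled by TMM (trimmed mean of M-values) and adjusted by Benjamini-Hochberg over all 430 genes with at least 10 reads in sum. It compares 2 libraries and not conditions, and its p-values rest on counting error alone. It called 5 of the 7 genes, 3 lower and 2 higher in replicate 1. Over all genes tested it called 55.3%, with 27.4% lower and 27.9% higher, and 80.5% of genes averaging 100 or more reads. A count of 5 of 7 lies between these shares and is no result about the 2 families. The median log2 difference was 0.15 over the 7 genes and -0.05 over all genes tested.

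The 3 detected genes of the miR-130 family were lower in replicate 1, each by this test. Mir301 was lower by 2.42-fold (log2 -1.27, interval -1.62 to -0.93, exact binomial test with Benjamini-Hochberg adjusted p = 3.8e-13). Mir130b was lower by 1.51-fold (log2 -0.60, -0.75 to -0.45) and Mir130a by 1.21-fold (log2 -0.27, -0.30 to -0.24). The difference of Mir130a, though far beyond counting error, was smaller than the median of 1.32-fold over genes averaging 100 or more reads. Mir301b, with 14 and 1 reads, had a log2 difference of 2.35 (0.17 to 8.28) and was not called (exact binomial test, adjusted p = 0.055).

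In the miR-148 family, Mir148b and Mir152 were higher in replicate 1. Mir148b was higher by 2.74-fold (log2 1.45, interval 1.18 to 1.75, exact binomial test with adjusted p = 5.3e-29), a difference as large as or larger than that of 91.2% of the 226 genes averaging 100 or more reads. Mir152 was higher by 1.23-fold (log2 0.30, 0.13 to 0.48, exact binomial test with adjusted p = 0.0016). Mir148a, at log2 0.15 (-0.03 to 0.32), was not called (exact binomial test, adjusted p = 0.16). Scaling by total counts moved log2 differences over all genes by 0.13 at the median. Mir148a (log2 0.28) and Mir301b (log2 2.48) were then called higher, which made 7 of 7, against 55.8% of all genes. Among all genes, total counts called 144 higher (33.5%) and 96 lower (22.3%), against 120 and 118 with TMM. DESeq2 size factors, and TMM computed over all gene rows, also called 7 of 7, and each called 55.8% of all genes. The count stayed at 5 of 7 with no filter on low counts (32.1% of all genes called) and with unstranded counts (53.6%). With a minimum of 100 reads in sum, which left Mir301b untested, it was 5 of 6, against 77.6% of all genes tested.

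A call by this test is no sign of a difference larger than the spread between replicates. When the coefficient of variation was fixed at 0.1 in edgeR's exact test, 3 of the 7 genes were called, namely Mir301, Mir130b and Mir148b, against 28.6% of all genes. The common coefficient of variation estimated from these libraries was 0.424. At that value edgeR's exact test called 0 of the 7 genes, 0 also at an unadjusted p under 0.05, and 0.93% of all genes. The estimate took the 2 libraries as replicates of each other, so it already holds the differences under test. Few calls were bound to follow, and no conclusion is drawn from them.

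Summed over their genes, the miR-130 family had a log2 difference of -0.29 (interval -0.33 to -0.26) and the miR-148 family one of 0.47 (0.36 to 0.58). These sums were not part of the gene-wise test. Markers of the heart's cell types and of other tissues were also compared between the libraries. The heart muscle list has its values above. Of its 3 genes, Mir208a and Mir499 were called higher in replicate 1, and Mir208b was not called (329 and 288 CPM). The endothelial Mir126a stood at 42911 CPM in replicate 1 and 63991 CPM in replicate 2. Of 2 smooth muscle genes both were detected (sum 30333 and 33879 CPM), with Mir143 called lower in replicate 1 (29124 and 33002 CPM) and Mir145a called higher (1209 and 877 CPM). Of 3 fibroblast genes 2 were detected (sum 7005 and 2616 CPM). These were Mir21a (4926 and 1225 CPM) and Mir214 (2080 and 1391 CPM). Mir199a-1 had 0 reads, but reads that mapped to several places were counted for no gene, so it need not be absent. Of 2 erythroid genes both were detected (337 and 6972 CPM) and called lower in replicate 1. Mir486, an erythroid microRNA outside this list, was called higher in replicate 1 (658 and 410 CPM). Of 5 epithelial genes 4 were detected (549 and 337 CPM). All 4 leukocyte genes were detected (2489 and 3142 CPM), but the sum follows Mir155 (1591 CPM in replicate 1 and 2619 CPM in replicate 2), and the other 3, Mir142, Mir223 and Mir150, were called higher in replicate 1 by the binomial test. Liver Mir122 stood at 55.9 and 70.4 CPM, skeletal muscle Mir206 at 7.83 and 20.5 CPM, and the pancreas list, with 1 of 3 detected and Mir216a at 0 reads, at 76.2 and 13.5 CPM. The part of cell makeup in the differences of the 7 genes was not tested, and in whole tissue fewer cells of a type and less RNA per cell cannot be told apart.

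**Figure D5:**
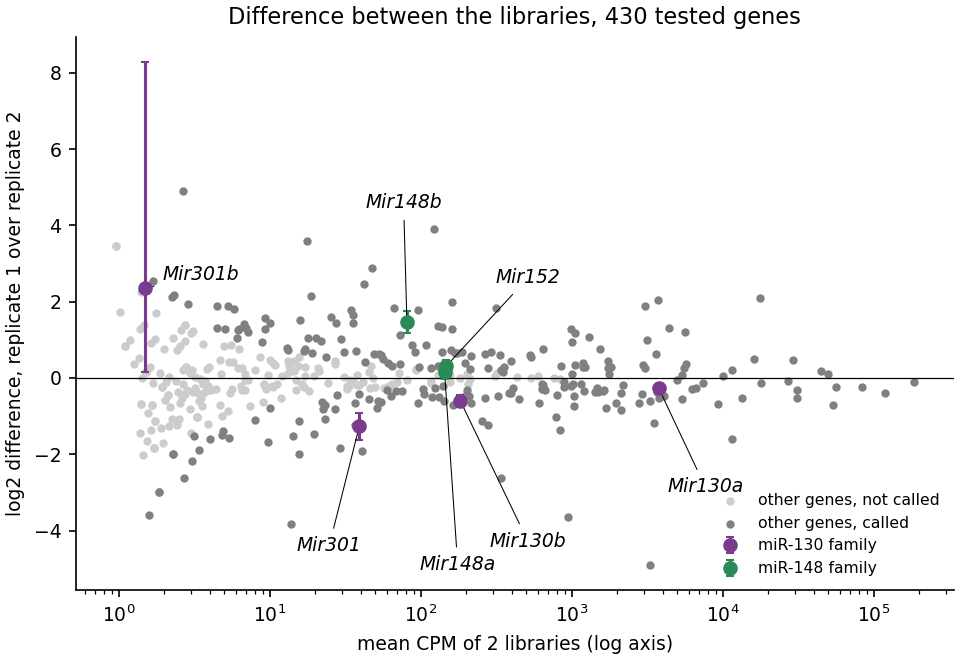
Log2 difference of replicate 1 over replicate 2 after TMM scaling against mean CPM (log axis) for 430 tested genes, with the 7 genes of both families in colour and bars for counting intervals. Mir130a, Mir130b and Mir301 lie below 0, at -0.27, -0.60 and -1.27, and Mir148b lies at 1.45.

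Other microRNAs with related seeds had few or no uniquely mapped reads, with the exception of Mir350. Besides the 6 sequences above, 9 of the 1738 mature sequences held AGUGCA or GUGCAA within bases 1 to 9 (mature strand as written), so that 15 (0.863%) held either. They are encoded by 9 further genes, Mir130c, Mir721, Mir6341, Mir6389, Mir19a, Mir19b-1, Mir19b-2, Mir291b and Mir350. The 3 that follow show the other registers and the same seed in a gene with no reads.
miR-721: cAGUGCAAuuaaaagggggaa
miR-19a-3p: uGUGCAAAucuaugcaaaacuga
miR-350-5p: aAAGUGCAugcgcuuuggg
Of the 9 genes, 6 had no read in either library, among them all 4 with the seed AGUGCAA that are not in the miR-130 family as listed. Mir19a had 4 and 0 reads and Mir19b-1 had 1 and 5. Mir19b-1, Mir19b-2 and Mir291b each share 20 bases with another hairpin, and reads that map to several places were not counted, so they can be undercounted by an unknown amount.

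Mir350 had 922 and 771 reads, or 176 CPM in replicate 1 and 255 CPM in replicate 2 (mean 215 ± 55.6 CPM). It was the only one of the 9 detected, and the tables do not say which arm the reads came from. Summed by the seed of the annotated strand, genes with AGUGCAA took 3988 ± 313 CPM, genes with CAGUGCA 371 ± 108 CPM, genes with AAGUGCA 215 ± 55.6 CPM and genes with GUGCAAA 1.30 ± 0.493 CPM. The RefSeq table used lists the 5′ strand alone for Mir301b, so this gene is in neither the AGUGCAA sum nor the 6 mature sequences shown. No gene named Mir454 is listed in the annotation used, and Mir130b and Mir301b had no microRNA gene within 10 kb other than each other.

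For each gene, the 1 gene outside both families with the nearest mean log2 CPM and log2 difference was found among 220 that averaged 100 or more reads. Over 2 libraries, likeness rests on 2 numbers and is a description only. Mir148b was nearest to Mir92b, at a distance of 0.03 log2 units (643 and 121 reads). Mir130b was nearest to Mir450b at 0.04 (789 and 621 reads), Mir301 to Mir331 at 0.09 (23.3 and 50.2 CPM) and Mir130a to Mir30e at 0.12 (17465 and 11974 reads). Mir148a and Mir152 were both nearest to Mir188 (883 and 419 reads), at 0.09 and 0.17. Mir301b had no near neighbour among these more abundant genes, the nearest lying 4.56 log2 units away.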

How the data were processed

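MicroRNA-seq tables of 2 heart libraries were used. The deposited tables hold whole-number counts per microRNA gene, not normalized, made against mm10 with GENCODE M21, per the readme deposited with them. Trimming, aligner and counter: not given in the sources used here. Of 3 count columns without a header or stated strand, the second was taken as the own-strand one because it held 5237062 and 3026501 gene reads, against 1356108 and 844671 in the third. The first 4 lines name no gene (unmapped, multimapping, outside genes, ambiguous) and were left out; in replicate 1 they held 58.8% of reads and in replicate 2 57.5%. Gene IDs were matched to names, positions and hosts in GENCODE M21 and to sequences in RefSeq on GRCm38.p6.

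CPM, Clopper-Pearson intervals and the binomial test were computed in Python 3.11.15 with scipy 1.17.1. TMM factors came from genes with at least 10 reads in sum, in edgeR 4.0.16 under R 4.3.3, and DESeq2 1.42.0 gave alternative size factors. Log2 values had 0.5 reads added, and the threshold of the adjusted p was 0.05. With 1 group, a quasi-likelihood test has no contrast. The binomial test was tried on simulated counts that held counting error only, and not on counts with a further spread between libraries. Named genes were the 7 genes, genes with related seeds, neighbours within 10 kb, markers, the most abundant gene and the nearest gene of each. Members and lists were chosen with earlier results of these data known. Whether the libraries differ in preparation is not stated, and the spread between them, which the p-values set against counting error, may be technical.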

Additional observations from a re-analysis of the deposited data

Results flagged for a closer look

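At Mir130a, 14 reads lay on the opposite strand in replicate 1 and 0 in replicate 2. The column of opposite-strand reads, identified by its smaller total, was not used in the report, and 14 is above the 3 reads that a count of 0 allows. The 14 reads were 0.0744% of the reads at this gene in replicate 1, and the other 6 genes had 0 opposite-strand reads in both libraries.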

How the results depend on the processing

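With unstranded counts, which leave out reads ambiguous between genes and so have smaller totals, the miR-130 family stood at 5465 CPM and the miR-148 family at 507 CPM, and with the most abundant gene left out of the total the miR-130 family stood at 4890 CPM. With each library alone the miR-130 family ranged from 3770 to 4210 CPM and the miR-148 family from 295 to 448 CPM. Of the 7 genes, edgeR's exact test, which adds a spread beyond counting error, called 3 with the coefficient of variation fixed at 0.1. At the common one it called 0, but that value was estimated from the same 2 libraries and holds the differences under test. Total counts, DESeq2 size factors and TMM over all gene rows (the last chosen after seeing the data) each called 7 of 7, as Mir148a and Mir301b gained calls. With no filter and with unstranded counts 5 of 7 were called, and with a minimum of 100 reads in sum 5 of the 6 tested. No log2 difference of a gene changed sign under any of these scalings, a pseudocount of 10 reads or unstranded counts. The pseudocount of 10 reads did shrink the values of Mir301b: its log2 difference was 0.20 against 2.35, the mean log2 ratio of Mir130b over Mir301b was 5.49 against 7.27, and that of Mir301 over Mir301b was 3.25 against 4.96. No paired analysis was possible because there is 1 group. Depth limits Mir301b most, with 1 read in replicate 2.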
